A study of Mus musculus with 8 samples.

Results

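The mRNA of 39 genes of cell division and DNA replication was measured in mouse cerebellum. The genes were taken by name from a table of 24060 gene rows, and all 39 had a row. They cover 4 steps of the cell cycle: 7 genes of G1 and the restriction point, 3 of entry into S phase, 9 of DNA replication and 20 of G2 and mitosis. A row was kept where at least 4 of the 8 libraries held 10 or more counts, and 36 of the 39 did.

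Bigenic mice carried CalExflox together with Aldh1l1-Cre/ERT2, and control mice carried CalExflox alone, with 4 mice and 1 library per mouse in each group. CalEx is a calcium pump of the plasma membrane, and the Aldh1l1 promoter drives the tamoxifen-activated Cre in astrocytes. Tamoxifen at 75 mg/kg was injected intraperitoneally, in corn oil, into the mice of both groups, and the tissue was taken 5 days later. Cre was present only in the bigenic mice, so effects of the pump and of Cre cannot be told apart, and expression of the pump was not checked here. The age and sex of the mice are not given in the sources used here.

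A dividing cell passes through ordered phases. In G1, D-type cyclins with Cdk4 or Cdk6 phosphorylate the retinoblastoma protein, which frees E2F factors, and cyclin E with Cdk2 then starts S phase. During S phase the Mcm helicase unwinds DNA and Pcna clamps the polymerases to it, after which cyclins A and B with Cdk1 bring the cell through G2 and mitosis. Most neurons of the mature cerebellum have left the cycle for good, while some glia, microglia and vessel cells can still divide.

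Libraries held between 35208460 and 38293012 counted reads. Markers of cerebellar neurons, led by Car8, Calb1 and Cbln3, summed to 10268 to 11154 CPM (counts scaled to library size) in bigenic and 9666 to 11124 CPM in control libraries, which fits the labelled tissue. Choroid plexus markers, led by Ttr, Enpp2 and Clic6, summed to 145 to 214 CPM in bigenic libraries and to 641, 3783, 4808 and 273 CPM in control libraries 1 to 4. Control libraries 2 and 3 stand apart by these markers, and control library 1 also exceeded every bigenic library, with Ttr at 300.2 CPM against 2.25 to 4.62 CPM in bigenic libraries and 2.76 CPM in control library 4. In all, 6 of the 7 choroid plexus markers that were fitted were lower in bigenic cerebellum (85.7%, beside 22.9% of all genes). Only 2 of the 7 had groups that did not overlap (28.6%, beside 40.7% of all genes). Results are therefore also given without control libraries 2 and 3, which leaves control library 1 in, and with the Ttr level as a covariate.

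The comparison of bigenic with control cerebellum asks how these genes stood 5 days after tamoxifen. Counts were compared with edgeR's quasi-likelihood test, with p adjusted by Benjamini-Hochberg over the 15186 genes of the fit, and an adjusted p under 0.05 counted as past the threshold. Fold changes are bigenic relative to control on the log2 scale, with the standard error of the fit, and CPM are given per library or as mean ± SD over n = 4 libraries.

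Of the 35 cell cycle genes that were fitted, 15 fell in bigenic cerebellum and 4 rose. Those that fell included the cyclins Ccnd1 and Ccnd2, their partner kinase Cdk4, the topoisomerase Top2a and the proliferation marker Mki67. Mki67 met the count rule through its control libraries alone. The 4 that rose were Ccna2, Bub1b, Nusap1 and Ccne2. Lower genes made up 42.9% of the 35 and higher genes 11.4%, beside 22.9% lower and 21.4% higher among all genes of the fit. In all, 54.3% of the 35 passed the threshold, against 44.3% of all genes, so passing it was common in this comparison. The median fold change was -0.29 over the 35 genes and -0.00 over all genes, whose quartiles were -0.33 and 0.27. Over the same 35 genes, the median lay between -0.41 and -0.22 with any 1 library left out. Beyond a 1.5-fold change as well, 15 of the 35 were lower (42.9%) and 3 higher (8.57%), beside 11.3% and 8.22% of all genes. These 15 include Mki67. In bulk tissue, fewer cells of a type and less RNA per cell cannot be told apart.

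The 4 bigenic libraries did not overlap the 4 control libraries in 17 of the 19 genes past the threshold, 14 lower and 3 higher, which is 48.6% of the 35 beside 40.7% of all genes. Ccne2 and Cenpf passed with overlapping libraries. Among the 15 lower genes, Mki67 reached the count minimum in control libraries alone. Without it 14 of 34 genes were lower (41.2%), 13 of them with groups that did not overlap, and the median fold change was -0.26. With control libraries 2 and 3 left out, 3 higher and 8 lower genes remained past the threshold, when 21.9% of all genes did, and all 19 kept their direction. With the Ttr level as a covariate, 3 higher and 11 lower remained, when 19.3% of all genes passed. Mki67 is counted among both the 8 and the 11 lower genes.

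**Figure D1:**
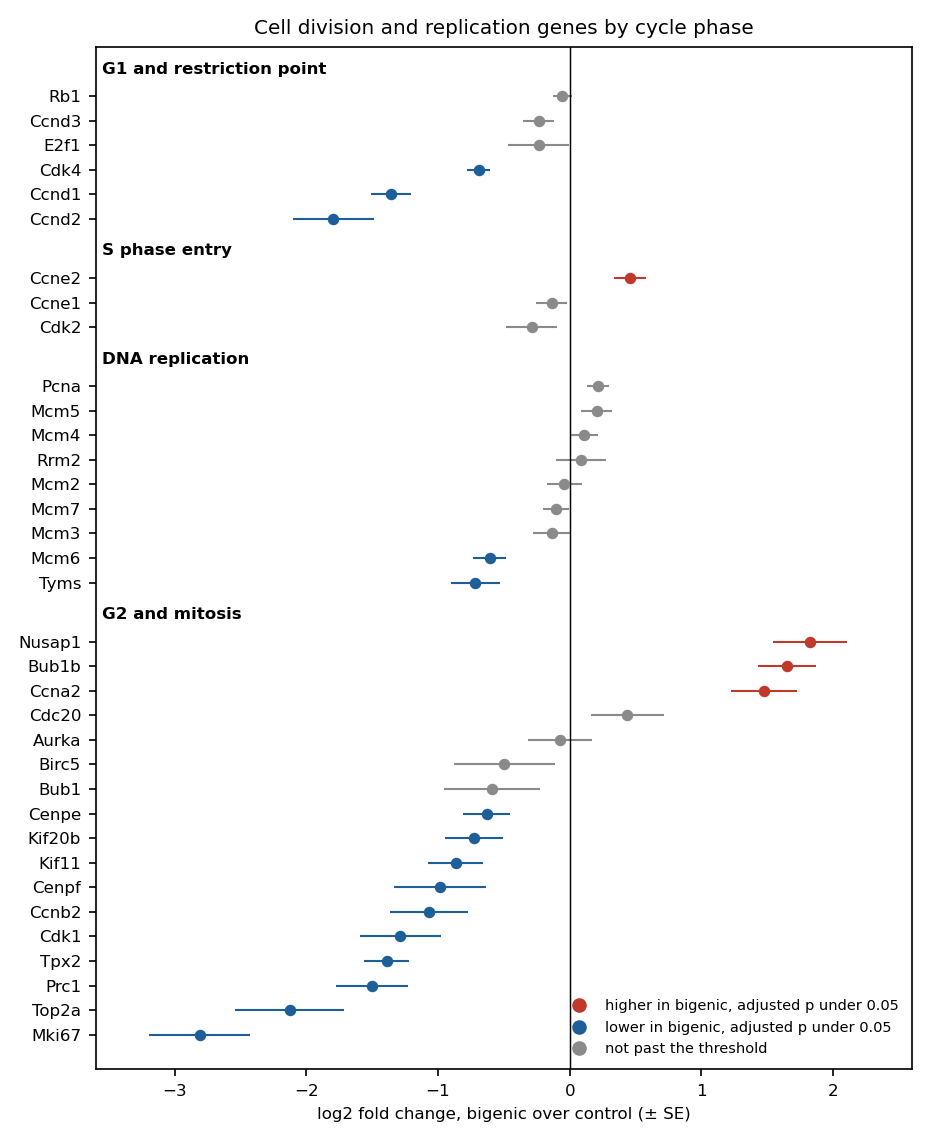
Log2 fold change (bigenic relative to control, ± SE) of the 35 fitted genes, 1 row per gene and grouped by cycle step, with colour marking genes past an adjusted p of 0.05. The 15 lower genes lie left of 0, down to Mki67 at -2.81, and the 4 higher genes right of it, up to Nusap1 at 1.83.

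In G1, 3 of the 6 fitted genes fell (50%, beside 22.9% of all genes) and none passed the threshold upwards, with a median of -0.46. Ccnd1, which encodes cyclin D1 (GRCm38, chr7:144929931-144939925, minus strand), had 19.1, 23.5, 13.5 and 15.8 CPM in bigenic libraries 1 to 4, against 44.5, 47.8, 50.7 and 41.0 CPM in control libraries 1 to 4. Every bigenic library lay under every control library, and the means were 2.56-fold lower in bigenic cerebellum, a log2 fold change of -1.36 ± 0.15 (adjusted p = 6.8e-05). Ccnd2, the gene of cyclin D2 (chr6:127125162-127152193, minus strand), had 1.17, 2.11, 1.35 and 1.11 CPM in bigenic libraries 1 to 4, against 2.82, 6.90, 6.43 and 3.86 CPM in control libraries 1 to 4. Its groups did not overlap either, and control libraries 2 and 3 were the highest of the 8. The Ccnd2 fold change was -1.80 ± 0.31 (adjusted p = 0.00090) over all libraries and -1.22 ± 0.29 (adjusted p = 0.019) without control libraries 2 and 3.

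Cdk4, the kinase that D-type cyclins activate (chr10:127063534-127067920, plus strand), had 30.6, 27.4, 23.7 and 29.0 CPM in bigenic libraries 1 to 4, against 45.6, 43.0, 46.3 and 44.0 CPM in control libraries 1 to 4. The groups were apart and the bigenic mean was 1.62-fold lower, at -0.69 ± 0.09 (adjusted p = 0.00015). Ccnd3, the remaining D-type cyclin, had 22.7, 17.3, 20.7 and 21.8 CPM in bigenic libraries 1 to 4, against 23.5, 28.7, 23.9 and 21.05 CPM in control libraries 1 to 4. Its libraries overlapped, and the difference of -0.24 ± 0.12 (adjusted p = 0.12) did not pass the threshold.

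Rb1 encodes the retinoblastoma protein that these kinases inactivate, and it measured 73.0 ± 3.54 CPM in bigenic libraries, against 75.9 ± 3.96 CPM in controls, a difference of -0.06 ± 0.07 (adjusted p = 0.54). E2f1, an activator of S-phase genes, measured 0.765 ± 0.111 CPM in bigenic libraries, against 0.901 ± 0.151 CPM in controls, a difference of -0.24 ± 0.23 (adjusted p = 0.43). Neither difference passed the threshold, and the libraries of the groups overlapped for both genes. Cdk6, the other partner of D-type cyclins, held 7, 8, 6 and 1 counts in bigenic and 3, 11, 10 and 16 counts in control libraries, too few for the count rule. The summed CPM of the 7 genes of G1 was 138 to 144 in bigenic and 185 to 210 in control libraries.

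Among the genes of S-phase entry, Ccne2 rose and Ccne1 and Cdk2 did not pass the threshold. Ccne2 encodes cyclin E2 and had 61.6, 47.0, 76.3 and 62.9 CPM in bigenic libraries 1 to 4, against 43.9, 41.8, 47.1 and 47.6 CPM in control libraries 1 to 4. Bigenic library 2 lay within the control range and the other 3 above it, and the mean was 1.37-fold higher, at 0.46 ± 0.12 (adjusted p = 0.011). Without control libraries 2 and 3 the Ccne2 difference was 0.43 with an adjusted p of 0.094. Ccne1, the gene of cyclin E1, differed by -0.14 ± 0.12 (adjusted p = 0.37), and Cdk2, the kinase both E cyclins bind, by -0.29 ± 0.20 (adjusted p = 0.25).

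Of the 9 genes of DNA replication, Mcm6 and Tyms fell, 7 did not pass the threshold, and the median was -0.04. The share that fell, 22.2%, is near the 22.9% of all genes. Mcm6, a subunit of the replicative helicase, had 5.25, 5.30, 6.28 and 6.76 CPM in bigenic libraries 1 to 4, against 8.00, 9.33, 9.70 and 8.92 CPM in control libraries 1 to 4. All bigenic libraries were under all controls, with a fold change of -0.61 ± 0.13 (adjusted p = 0.0027). The 5 other helicase subunits lay between -0.13 and 0.20: Mcm2 at -0.04 ± 0.14 (adjusted p = 0.83), Mcm3 at -0.13 ± 0.14 (adjusted p = 0.47), Mcm4 at 0.11 ± 0.11 (adjusted p = 0.43), Mcm5 at 0.20 ± 0.12 (adjusted p = 0.17) and Mcm7 at -0.10 ± 0.10 (adjusted p = 0.41). Only Mcm6 of the 6 subunits passed the threshold, and its difference from the others was not tested.

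Tyms, the enzyme that makes thymidylate, had 1.14, 1.38, 1.17 and 1.31 CPM in bigenic libraries 1 to 4, against 1.83, 1.85, 2.11 and 2.44 CPM in control libraries 1 to 4. Its groups did not overlap, and the fold change was -0.72 ± 0.19 (adjusted p = 0.0090). Leaving out control libraries 2 and 3 gave -0.52 for Mcm6 (adjusted p = 0.054) and -0.77 for Tyms (adjusted p = 0.052). Pcna, the sliding clamp of the polymerases, had 46.9, 38.1, 43.0 and 45.9 CPM in bigenic libraries 1 to 4, against 35.8, 38.6, 38.6 and 37.3 CPM in control libraries 1 to 4. The bigenic libraries reached higher but overlapped the controls, and the difference of 0.21 ± 0.08 (adjusted p = 0.058) missed the threshold. With bigenic library 2 left out, Pcna was at 0.27 (adjusted p = 0.0088) and Mcm5 at 0.28 (adjusted p = 0.047). Pcna also passed as higher with relative log expression scaling of the counts and with DESeq2. Rrm2, a subunit of ribonucleotide reductase, differed by 0.09 ± 0.19 (adjusted p = 0.73).

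The genes of G2 and mitosis changed in both directions. Of the 17 fitted, 10 fell (58.8%) and 3 rose (17.6%), 76.5% in all, with a median of -0.73, beside 22.9% lower, 21.4% higher and 44.3% in all over all genes. The 10 include Mki67, which met the count rule through its control libraries alone, and 9 fell without it. These shares and the median keep Mki67. Since the genes summed here were chosen by their direction, the sums describe size only. Summed over the 10 genes that fell, bigenic libraries held 7.84 to 9.58 CPM and control libraries 14.4 to 22.2 CPM. With Mki67 left out of that sum, the largest bigenic value was 9.39 CPM and the smallest control value 13.75 CPM. Summed over the 3 that rose, bigenic libraries held 12.95 to 19.2 CPM and control libraries 3.95 to 5.67 CPM. The sum over all 20 genes was 28.3 to 33.0 CPM in bigenic libraries and 27.7 to 33.5 CPM in controls, and the groups overlapped.

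The promoters of mitotic genes are shown because many carry a paired code of a CCAAT box, which NF-Y binds, and a cell cycle homology region (CHR), which the DREAM and MuvB complexes bind. The 200 bases before the annotated RefSeq start are printed 5′ to 3′ on the gene's strand, for 4 genes that fell and for Bub1b, which rose. Capitals mark CCAAT or its reverse complement ATTGG, and the CHR letters TTTGAA or TTCAAA. Positions on GRCm38.p6 are Mki67 on the minus strand, chr7:135716380-135716579; Top2a on the minus strand, chr11:99024190-99024389; Ccnb2 on the minus strand, chr9:70421555-70421754; Kif11 on the plus strand, chr19:37376182-37376381; and Bub1b on the plus strand, chr2:118598011-118598210.
Mki67: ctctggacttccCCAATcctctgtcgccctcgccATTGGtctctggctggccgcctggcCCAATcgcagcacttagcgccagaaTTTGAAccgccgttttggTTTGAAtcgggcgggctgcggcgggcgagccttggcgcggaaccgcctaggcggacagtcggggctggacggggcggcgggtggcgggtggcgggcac
Top2a: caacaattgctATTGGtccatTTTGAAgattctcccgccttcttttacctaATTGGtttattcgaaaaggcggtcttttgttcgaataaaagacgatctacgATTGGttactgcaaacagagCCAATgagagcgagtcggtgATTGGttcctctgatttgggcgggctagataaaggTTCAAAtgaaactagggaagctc
Ccnb2: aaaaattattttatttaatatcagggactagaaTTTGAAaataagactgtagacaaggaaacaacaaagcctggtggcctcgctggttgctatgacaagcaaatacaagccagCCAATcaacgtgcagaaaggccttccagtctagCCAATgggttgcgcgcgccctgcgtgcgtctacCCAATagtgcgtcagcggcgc
Kif11: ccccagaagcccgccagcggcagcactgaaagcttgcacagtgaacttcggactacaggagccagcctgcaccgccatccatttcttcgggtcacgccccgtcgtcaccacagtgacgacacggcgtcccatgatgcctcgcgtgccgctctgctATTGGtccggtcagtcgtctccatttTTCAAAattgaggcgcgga
Bub1b: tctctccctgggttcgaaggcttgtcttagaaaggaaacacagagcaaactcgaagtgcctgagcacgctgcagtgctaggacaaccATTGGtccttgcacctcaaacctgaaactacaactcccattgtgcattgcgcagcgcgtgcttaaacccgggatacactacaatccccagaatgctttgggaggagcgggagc
In Kif11 the CHR letters begin 19 bases before the start and a CCAAT box 45 bases before it. In Ccnb2, CCAAT boxes begin 87, 54 and 21 bases before the start and CHR letters 167 bases before it. Bub1b holds 1 CCAAT box, 113 bases before its start, and no CHR letters in this window.

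The letters were counted on both strands in the 250 bases before each RefSeq start, each motif by itself, so that matches of different motifs may overlap. Promoters were listed for 31 of the 39 genes, 34 windows in all. CHR letters were in 8 of the 34 windows (23.5%), in 16.0% of all 32851 promoters and in 10.5% of those of the fitted genes. A CCAAT box was in 25 windows (73.5%), against 33.8% of all promoters. Among the mitotic genes that fell, 6 of 10 windows held both motifs (60.0%), against 5.55% of all promoters and 3.85% of those of fitted genes, and neither window of Bub1b and Nusap1 held CHR letters. The 10 windows belong to 9 genes, as Prc1 has a pair of overlapping windows, and the 6 include that of Mki67. Those of Cenpe, Cenpf and Kif20b held no CHR letters, unlike those of the 4 genes that fell and are printed above. Ccna2, which also rose, had no window listed, and all 250 bases of the Nusap1 window are exon of Oip5. Both motifs were in 7 of the 18 windows of all genes of G2 and mitosis (38.9%) and in 2 of the 16 windows of listed genes not past the threshold (12.5%). E2F forms (TTTCCCGC, TTTGGCGC, TTTCGCGC or TTTGCCGC) were in 5 of the 34 windows (14.7%) and in 1.86% of all promoters. These matches describe letters only, in a list of genes chosen as cell cycle genes.

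Mki67 and Top2a, both produced mainly in dividing cells, had the largest decreases of the 35 genes. Mki67 (chr7:135689784-135716361, minus strand) held 2, 7, 5 and 6 counts in bigenic libraries 1 to 4, against 25, 31, 51 and 47 counts in control libraries 1 to 4. That is 0.141 ± 0.0581 CPM in bigenic libraries, against 1.01 ± 0.341 CPM in controls, a 7.20-fold lower mean in bigenic cerebellum, and a fold change of -2.81 ± 0.38 (adjusted p = 0.00021). Mki67 met the count rule through its control libraries alone, since every bigenic library held fewer than 10 counts. Its decrease and its adjusted p are therefore given as a description and not as a test result. Top2a encodes the topoisomerase that untangles chromosomes (chr11:98992943-99024189, minus strand). It held 4, 13, 12 and 15 counts in bigenic libraries, against 27, 38, 66 and 78 counts in control libraries, a fold change of -2.13 ± 0.41 (adjusted p = 0.0018). Both genes had few reads even in controls, and their groups did not overlap. Without control libraries 2 and 3, Mki67 was at -2.68 ± 0.46 (adjusted p = 0.0050) and Top2a at -2.10 ± 0.50 (adjusted p = 0.017).

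The mitotic kinase and its B-type cyclin fell together. Cdk1, the kinase that starts mitosis, had 0.228, 0.298, 0.359 and 0.362 CPM in bigenic libraries 1 to 4, against 0.457, 0.872, 0.776 and 0.946 CPM in control libraries 1 to 4, a fold change of -1.29 ± 0.31 (adjusted p = 0.0057). Ccnb2, a B-type cyclin that binds it, had 0.571, 0.676, 0.299 and 0.528 CPM in bigenic libraries 1 to 4, against 0.779, 1.26, 0.970 and 1.37 CPM in control libraries 1 to 4, a fold change of -1.07 ± 0.29 (adjusted p = 0.012). Both were under 1.4 CPM in every library, and neither passed without control libraries 2 and 3, when Cdk1 was at -1.17 (adjusted p = 0.067) and Ccnb2 at -1.05 (adjusted p = 0.078). Ccnb1, the other B-type cyclin listed, held 4, 4, 5 and 10 counts in bigenic and 10, 5, 14 and 25 counts in control libraries. It met the count rule in exactly 4 libraries but was too low to be fitted.

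Tpx2, Prc1 and Kif11, which act on spindle microtubules, also fell. Tpx2, which activates Aurora A and nucleates spindle microtubules (chr2:152847964-152895321, plus strand), had 1.71, 1.60, 2.00 and 1.70 CPM in bigenic libraries 1 to 4, against 3.73, 4.23, 4.88 and 5.53 CPM in control libraries 1 to 4. The bigenic mean was 2.62-fold lower, at -1.39 ± 0.17 (adjusted p = 0.00011). Prc1, which bundles microtubules of the central spindle, had 1.20, 1.14, 0.569 and 0.556 CPM in bigenic libraries 1 to 4, against 2.01, 2.64, 2.49 and 2.69 CPM in control libraries 1 to 4, a fold change of -1.50 ± 0.27 (adjusted p = 0.0011). Kif11, the motor that pushes the spindle poles apart, had 1.34, 1.57, 1.41 and 1.20 CPM in bigenic libraries 1 to 4, against 1.96, 2.67, 2.13 and 3.29 CPM in control libraries 1 to 4, a fold change of -0.87 ± 0.21 (adjusted p = 0.0059). All 3 genes had groups that did not overlap, and all 3 still passed without control libraries 2 and 3.

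Kif20b, Cenpe and Cenpf showed smaller or less even decreases. Kif20b, a kinesin of late cell division, had 1.14, 1.73, 1.65 and 1.61 CPM in bigenic libraries 1 to 4, against 1.75, 2.72, 3.19 and 2.52 CPM in control libraries 1 to 4, a fold change of -0.73 ± 0.22 (adjusted p = 0.020). Cenpe, a kinesin of the kinetochore, had 1.06, 1.14, 1.26 and 1.25 CPM in bigenic libraries 1 to 4, against 1.61, 1.95, 1.88 and 1.84 CPM in control libraries 1 to 4, a fold change of -0.63 ± 0.18 (adjusted p = 0.014). Cenpf, a large kinetochore protein, had 0.428, 0.893, 0.269 and 0.473 CPM in bigenic libraries 1 to 4, against 0.725, 1.23, 1.27 and 0.897 CPM in control libraries 1 to 4, and its libraries overlapped at -0.99 ± 0.35 (adjusted p = 0.037). With control libraries 2 and 3 left out, Kif20b was at -0.48 (adjusted p = 0.23), Cenpe at -0.56 (adjusted p = 0.14) and Cenpf at -0.64 (adjusted p = 0.31). Kif20b also missed the threshold without bigenic library 1, control library 2 or control library 3, each left out alone, with adjusted p of 0.053 to 0.064. Cenpf missed it without bigenic library 1, 3 or 4 or control library 2 or 3, with adjusted p of 0.083 to 0.097.

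Bub1b, Nusap1 and Ccna2 stood higher in every bigenic library than in any control library. Bub1b encodes BubR1 of the spindle checkpoint (chr2:118598211-118641591, plus strand) and had 6.53, 9.87, 8.44 and 10.8 CPM in bigenic libraries 1 to 4, against 3.76, 1.79, 2.97 and 2.84 CPM in control libraries 1 to 4. The bigenic mean was 3.14-fold higher, a fold change of 1.65 ± 0.22 (adjusted p = 0.00018). Nusap1, which binds spindle microtubules (chr2:119618298-119651244, plus strand), had 3.19, 2.41, 6.25 and 3.28 CPM in bigenic libraries 1 to 4, against 0.913, 1.18, 1.14 and 1.02 CPM in control libraries 1 to 4. The bigenic mean was 3.56-fold higher, at 1.83 ± 0.28 (adjusted p = 0.00044), and bigenic library 3 was the highest. Ccna2, the gene of cyclin A2 that acts in S phase and G2 (chr3:36564865-36572150, minus strand), had 3.22, 2.08, 4.52 and 2.64 CPM in bigenic libraries 1 to 4, against 0.994, 0.974, 1.36 and 1.15 CPM in control libraries 1 to 4. Its mean was 2.79-fold higher, at 1.48 ± 0.25 (adjusted p = 0.00077), and bigenic library 3 was again the highest. Without control libraries 2 and 3 the fold changes were 1.43 ± 0.24 for Bub1b, 1.96 ± 0.40 for Nusap1 and 1.53 ± 0.34 for Ccna2, with adjusted p of 0.0049, 0.0094 and 0.013.

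**Figure D2:**
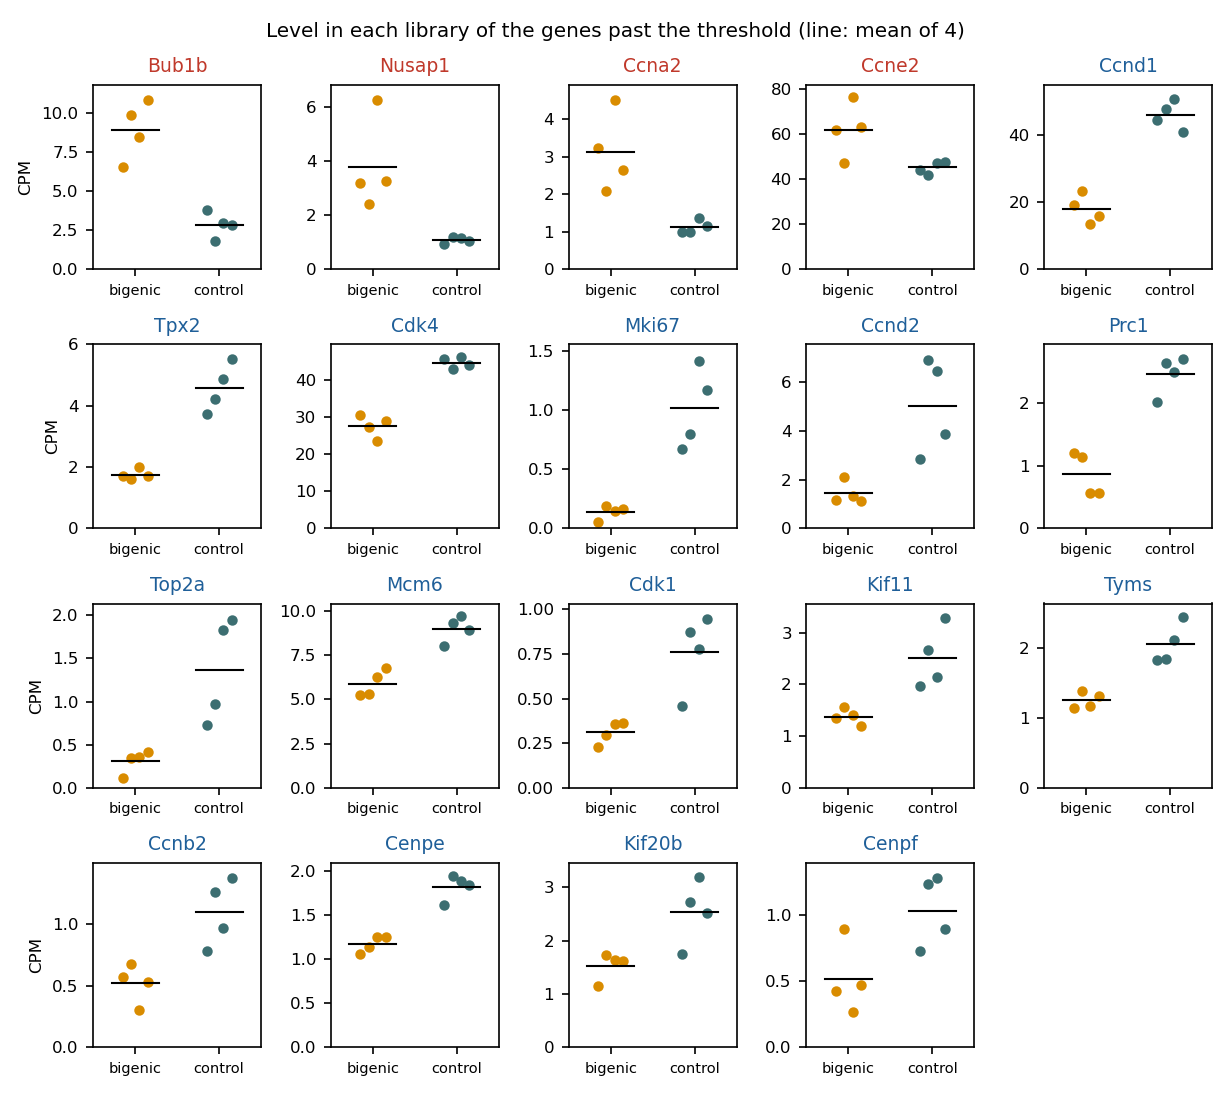
CPM of each of the 19 genes past the threshold in each library, 1 panel per gene on a linear axis from 0, with the 4 bigenic libraries left and the 4 control libraries right and a line at each mean. Bub1b lies between 6.53 and 10.8 CPM in bigenic libraries and 1.79 and 3.76 CPM in controls, whereas Tpx2 lies between 1.60 and 2.00 CPM in bigenic libraries and 3.73 and 5.53 CPM in controls.

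The other 4 fitted genes of G2 and mitosis did not pass the threshold. Bub1, the checkpoint kinase, differed by -0.59 ± 0.36 (adjusted p = 0.20), Aurka, the Aurora A kinase, by -0.07 ± 0.25 (adjusted p = 0.83), Cdc20, which activates the anaphase-promoting complex, by 0.44 ± 0.28 (adjusted p = 0.22), and Birc5, or survivin, by -0.50 ± 0.38 (adjusted p = 0.31). Bub1 and Bub1b lay on opposite sides of 0, and only Bub1b passed the threshold. Birc5 met the count rule in exactly 4 libraries, with 12, 8, 6 and 4 counts in bigenic and 9, 11, 10 and 16 counts in control libraries. Plk1, a kinase of mitotic entry, reached 10 counts in only 2 libraries, with 8, 9, 9 and 10 counts in bigenic and 5, 4, 11 and 7 counts in control libraries. Aurkb, the Aurora B kinase, reached it in 1 library, with 2, 6, 0 and 3 counts in bigenic and 4, 9, 2 and 15 counts in control libraries. The 0 in bigenic library 3 allows up to 0.0898 CPM by counting error.

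**Figure D3:**
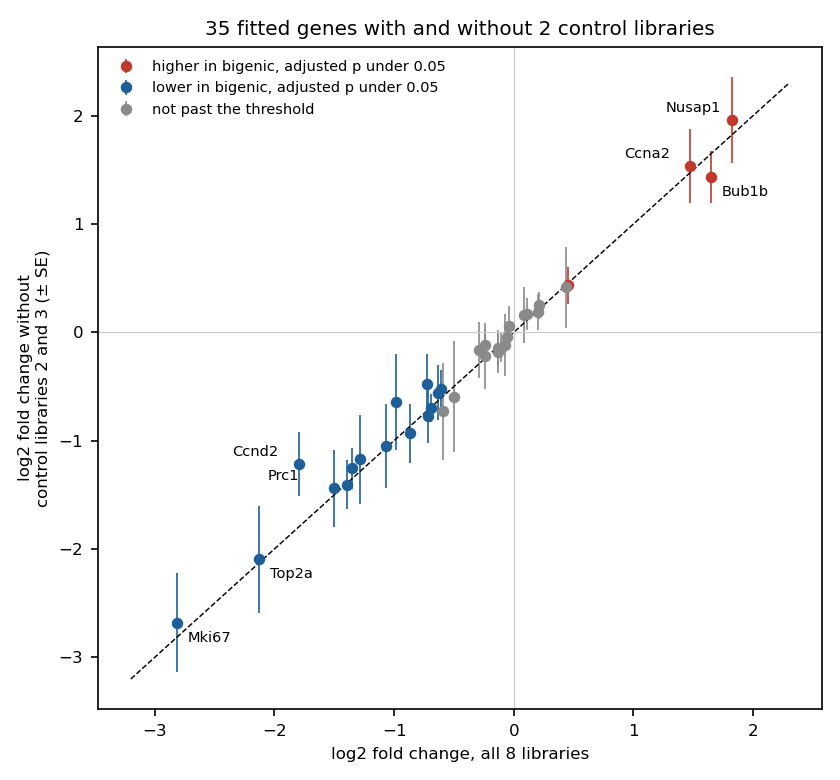
Log2 fold change of the 35 fitted genes with all 8 libraries (x axis) and without control libraries 2 and 3 (y axis, ± SE), with a dashed line of equality and colour for the call with all libraries. Mki67 at -2.81 and -2.68 and Nusap1 at 1.83 and 1.96 lie near the line, while Ccnd2 moves to -1.22 without the 2 libraries, against -1.80 with them.

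Markers of cell types that the tissue can hold were read beside these changes. The counts of lower and higher markers stand beside 22.9% lower and 21.4% higher over all genes, 44.3% in all. Microglial markers, led by Csf1r, P2ry12 and Cx3cr1, summed to 51.2 to 71.1 CPM in bigenic libraries and 79.6 to 96.3 CPM in controls, and 4 of 7 fell. Vessel and mural markers, led by Rgs5, Pecam1 and Flt1, summed to 198 to 211 CPM in bigenic libraries and 220 to 251 CPM in controls, with 1 of 8 higher and 2 lower. Both sums were lower in all bigenic libraries than in any control, but the markers within each list differed. Cx3cr1, P2ry12, P2ry13 and Aif1 fell, while Csf1r, Tmem119 and Siglech did not pass the threshold. Of the vessel markers, Tek fell by 1.34 ± 0.09 (adjusted p = 2.6e-06), while Cldn5, Pecam1 and Flt1 did not pass it. Markers of oligodendrocyte precursors, led by Lhfpl3, Pdgfra and Gpr17, summed to 140.1 to 149 CPM in bigenic libraries and 140.4 to 165 CPM in controls, with 1 of 7 higher and 2 lower. Granule cell progenitor markers, led by Pax6, Ptch1 and Hhip, summed to 212 to 240 CPM in bigenic libraries and 201 to 223 CPM in controls, with 1 of 5 higher and 1 lower. Atoh1, which defines those progenitors, held 0 to 2 counts per library, so this sum is not a measure of them. Markers of astrocytes, led by Slc1a3, Aqp4 and Hopx, summed to 3587 to 4327 CPM in bigenic libraries and 3597 to 4065 CPM in controls, with 2 of 8 higher and 3 lower. Ependymal markers, led by Foxj1, Ccdc153 and Dynlrb2, summed to 10.2 to 17.4 CPM in bigenic libraries and 11.3 to 19.95 CPM in controls, with 2 of 5 lower. Markers of blood cells, led by Alas2, Ptprc and S100a9, summed to 3.48 to 14.4 CPM in bigenic libraries and 11.7 to 15.1 CPM in controls, with 3 of 5 lower and Hba-a1 and Hbb-bs at 0 throughout. The part of these cell types in the cell cycle results was not tested.

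Levels were compared between genes on the authors' FPKM scale, which divides by gene length. In bigenic cerebellum Pcna was the most abundant of the 39 at 33.5 ± 3.35 FPKM, followed by Cdk4 at 19.98 ± 2.42, Ccne2 at 18.7 ± 3.44 and Rb1 at 15.3 ± 0.492 FPKM. Cdk4 and Ccne2, and likewise Ccne2 and Rb1, lay within their spread of each other there, and Pcna stood above them. In control cerebellum the order of the first 4 was Cdk4 at 34.2 ± 0.975, Pcna at 30.7 ± 0.996, Rb1 at 16.9 ± 0.727 and Ccne2 at 14.4 ± 0.933 FPKM. Each of these 4 was apart from the next by more than its spread. Further down, Mcm7, Ccne1 and Mcm4 had overlapping ranges of mean ± SD in controls, at 8.29 ± 0.445, 7.61 ± 0.593 and 7.49 ± 0.534 FPKM. Genes of G2 and mitosis ranged from Cdc20, at 2.50 FPKM in bigenic and 1.96 FPKM in control cerebellum, down to the lowest of the 39. Mki67 was at 0.0135 ± 0.00557 FPKM in bigenic and 0.103 ± 0.0344 FPKM in control cerebellum, and Top2a at 0.0577 ± 0.0249 FPKM in bigenic and 0.270 ± 0.121 FPKM in control cerebellum. Bub1b reached 2.36 ± 0.501 FPKM in bigenic cerebellum, against 0.797 ± 0.226 FPKM in controls, the highest bigenic level among the 3 mitotic genes that rose.

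**Figure D4:**
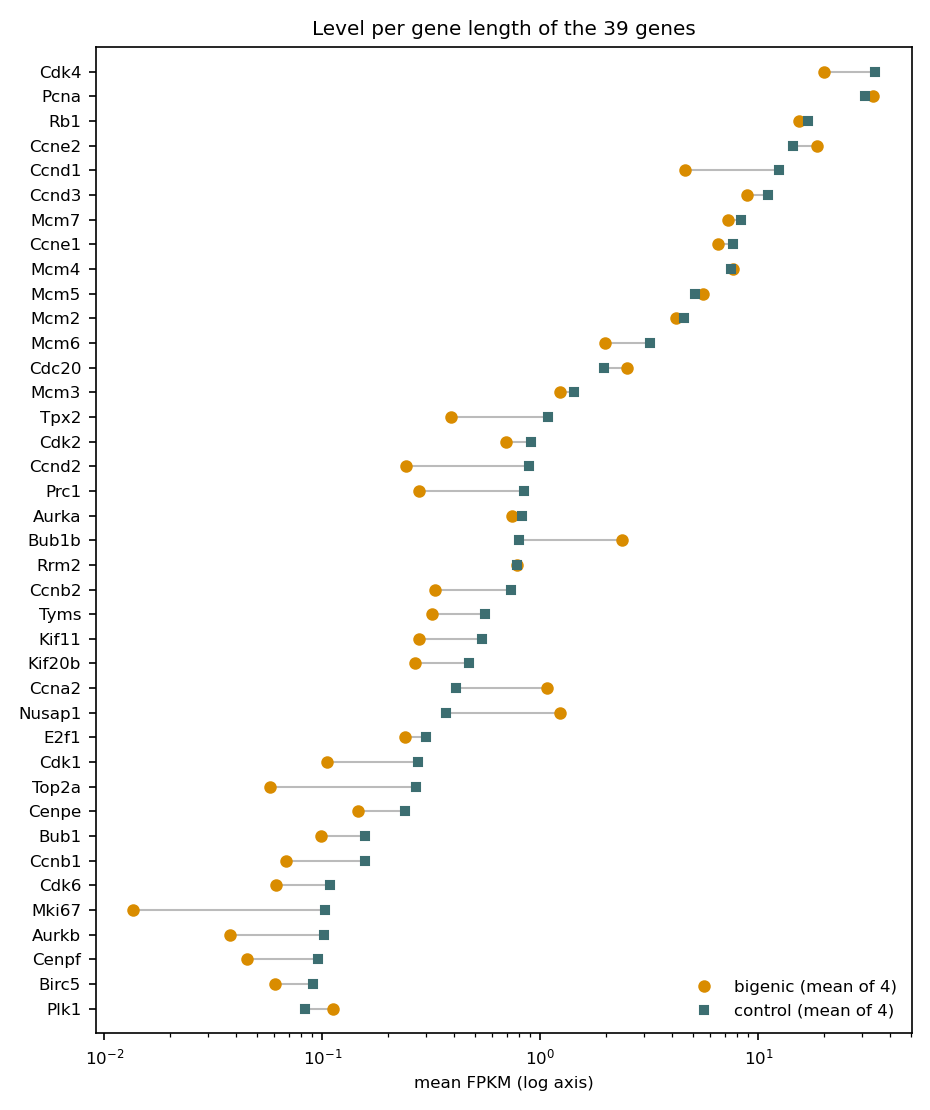
Level of each of the 39 genes in FPKM on a log axis, with circles for bigenic means, squares for control means (4 libraries each) and genes ordered by control level. Cdk4 and Pcna are the 2 highest genes of both groups, and Mki67 is the lowest of all at 0.0135 FPKM in bigenic libraries.

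Several genes share exon bases with a gene on the other strand, and whether counting used strand is not given in the sources used here. How reads from these shared bases were counted is therefore not known, and the values of these genes may depend on it. Ccnd1 shares 23.4% of its exonic bases with Oraov1, whose difference was -0.17 (adjusted p = 0.26). Cdk4 shares 19.7% with Tspan31, which also fell, at -0.49 ± 0.07 (adjusted p = 0.00039). Ccne2 shares 17.4% with Ints8, at -0.21 (adjusted p = 0.10), Ccna2 shares 12.5% with Exosc9, at 0.15 (adjusted p = 0.30), and Prc1 shares 11.1% with Rccd1, at -0.41 (adjusted p = 0.074). Nusap1 shares 4.24% with Oip5, at 0.09 (adjusted p = 0.84). Bub1b, Mki67, Tpx2, Cdk1, Ccnb2, Kif11 and Mcm6 share no exonic bases with another gene of the annotation.

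Further genes of the same machinery were read from 5 lists, 122 genes in the table. Of the 113 fitted, 36 fell and 17 rose, with a median of -0.23. That is 31.9% lower and 15% higher, beside 22.9% and 21.4% of all genes. Leaving out control libraries 2 and 3, 18 were lower and 5 higher. Differences given for these genes are log2 fold changes ± SE unless CPM is named.

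Of 19 genes of origin licensing and firing, 5 fell (26.3%) and 3 rose (15.8%), beside 22.9% lower and 21.4% higher among all genes. Gins3, a subunit of the GINS part of the helicase, fell by 1.00 ± 0.13 on the log2 scale (adjusted p = 0.00020), with 3.06 ± 0.374 CPM in bigenic libraries and 6.11 ± 0.283 CPM in controls. Cdc7, the kinase that fires origins, fell by 0.65 ± 0.10 (adjusted p = 0.00048). The origin recognition subunits Orc4, at 0.42 ± 0.07 (adjusted p = 0.00079), and Orc6, at 0.76 ± 0.19 (adjusted p = 0.0068), rose.

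Of 28 genes of the replication fork and nucleotide supply, 14 fell (50%) and 6 rose (21.4%), beside 22.9% and 21.4% of all genes. Fen1, the flap nuclease of Okazaki fragments, rose, with 42.6 ± 5.75 CPM in bigenic libraries and 23.3 ± 1.41 CPM in controls, a fold change of 0.87 ± 0.11 (adjusted p = 0.00011). Pold3, a subunit of polymerase delta, fell by 0.76 ± 0.09 (adjusted p = 0.00011). The clamp loader subunits Rfc1 and Rfc2 fell by 0.45 ± 0.06 (adjusted p = 0.00025) and 0.69 ± 0.10 (adjusted p = 0.00034).

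Of 17 genes of E2F factors, pocket proteins, MuvB and Myc, 3 fell (17.6%) and 2 rose (11.8%). Both shares were under the 22.9% lower and 21.4% higher of all genes. Myc, which drives growth and G1 progression, rose by 1.16 ± 0.20 (adjusted p = 0.00091), with 2.75 ± 0.416 CPM in bigenic libraries and 1.23 ± 0.246 CPM in controls. Its relative Mycn fell by 0.61 ± 0.18 (adjusted p = 0.018). E2f6, a repressor of E2F targets, fell by 0.53 ± 0.11 (adjusted p = 0.0020), and Tfdp2, an E2F partner, rose by 0.40 ± 0.08 (adjusted p = 0.0023).

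Of 34 further genes of mitotic entry, spindle and cytokinesis, 11 fell (32.4%) and 5 rose (14.7%), beside 22.9% and 21.4% of all genes. Smc2, a core subunit of condensin, fell by 1.04 ± 0.09 (adjusted p = 1.2e-05), with 12.9 ± 0.624 CPM in bigenic libraries and 26.5 ± 1.67 CPM in controls. Kif20a, a kinesin of cytokinesis, fell by 1.37 ± 0.30 (adjusted p = 0.0038), Ccnf, or cyclin F, by 0.80 ± 0.19 (adjusted p = 0.0051), and Cdca8, or borealin, by 1.66 ± 0.40 (adjusted p = 0.0063).

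Of 15 subunits of the anaphase-promoting complex, the ligase that ends mitosis, 3 fell (20%) and 1 rose (6.67%). Both shares were under the 22.9% lower and 21.4% higher of all genes. Cdc23 fell by 0.50 ± 0.08 (adjusted p = 0.00053), Cdc16 by 0.42 ± 0.07 (adjusted p = 0.0011) and Anapc5 by 0.51 ± 0.10 (adjusted p = 0.0026), while Anapc7 rose by 0.42 ± 0.07 (adjusted p = 0.00091). Kif20a shares 29.3% of its exonic bases with Cdc23 on the other strand, Rfc2 shares 15.1% with Lat2, and Fen1 shares 78.8% with the antisense gene Gm10143, which was not analysed here. Orc6 and Mycn did not pass the threshold without control libraries 2 and 3, nor Mycn without control library 2 alone (adjusted p = 0.060). With the Ttr level as a covariate, Orc4, Orc6, Tfdp2, Mycn, Ccnf and Anapc5 kept their direction and missed the threshold, with adjusted p of 0.050 for Tfdp2 to 0.14 for Mycn.

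**Figure D5:**
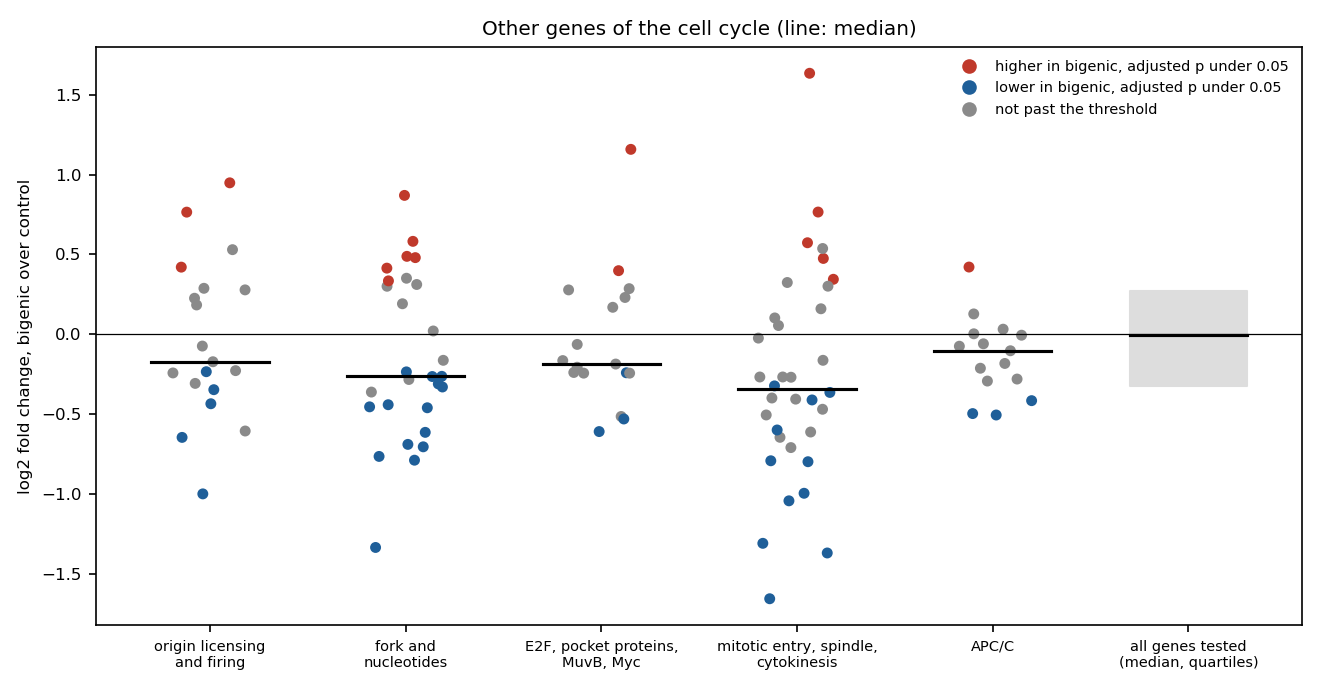
Log2 fold change (bigenic relative to control) of each fitted gene in the 5 further lists, 1 column per list, with a bar at the median and colour for genes past the threshold. The medians lie between -0.34 for the mitotic list and -0.10 for the anaphase-promoting complex, and every list holds genes past the threshold on both sides of 0.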

How the data were processed

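RNA of cerebellum was sequenced from 8 mice, 4 bigenic and 4 control, and the labels name a separate mouse for each sample. STAR and HTSeq, on build mm10, are named in the submitters' processing notes, without versions. The labels disagree on library preparation and instrument, naming Nugen Ovation and NextSeq in 1 place and stranded TruSeq and HiSeq4000 in another. The deposited counts are raw whole numbers per gene. The deposited FPKM equal these counts divided by gene length and column total, within 1% for 14770 of 14770 genes checked.

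Counts were fitted in R 4.3.3 with edgeR 4.0.16 (TMM, filterByExpr, robust quasi-likelihood F test, Benjamini-Hochberg) on group alone. The filter left 15186 genes. CPM use TMM-scaled library sizes. Alternatives used other scalings and filters, DESeq2 1.42.0, limma 3.58.1 on log2(FPKM + 1) or log2(FPKM + 0.1), a Ttr covariate, a replicate block and left-out libraries. The fit was tested on simulated counts with 200 changed genes. It recovered 51% of 1.5-fold and 80% of 2-fold changes, and 7.75% of its calls were false. A gene that did not pass the threshold may therefore still differ. The simulation changed 200 genes with 15062 fitted, a far smaller share than the 44.3% of genes past the threshold in the data. Its rates of recovery and of false calls therefore need not hold for the data. The limit for a count of 0 is 3 counts and covers counting error only.

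A marker gene is not reported here and was left out of its list. The 39 genes and all lists were chosen with earlier results of these data known, so their counts are descriptions. All 39 genes were accounted for, and each further list gives up to 4 genes with the smallest p past the threshold. Coordinates are from GENCODE M21, counted from 1, and promoters from RefSeq GRCm38.p6. Matching was by symbol. Promoter windows were not given for Rb1, Ccnd1, Ccnd2, Ccne2, Ccna2, Mcm4, Aurkb and Tpx2.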

Additional observations from a re-analysis of the deposited data

Results flagged for a closer look

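Mcm7, a helicase subunit, measured 17.8 CPM in control library 2, against 19.77 to 19.80 CPM in the other 3 control libraries. The gap to the nearest library took 0.983 of the group's range, which is over the critical value for 4 samples. It was 1 of 118 groups examined, and chance flags about 1 in 20. The Mcm7 difference between bigenic and control cerebellum did not pass the threshold.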

How the results depend on the processing

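Each gene was recomputed under 20 alternatives. Of the 4 higher genes, 77 of 80 values kept direction and call, and of the 15 lower genes 278 of 300, the other 22 keeping direction but missing the threshold. Mki67, which met the count rule through its control libraries alone, is counted as lower in all 20 alternatives. The genes counted were 4 to 6 higher and 13 to 16 lower except in 3 settings: 3 and 11 with a Ttr covariate (Ccne2, Mcm6, Cenpe, Cenpf and Kif20b lost), 3 and 14 on unfiltered FPKM, and 3 and 8 without control libraries 2 and 3. All genes past the threshold came to 2938 with the Ttr covariate, 3394 without control libraries 2 and 3, and 5281 to 7411 with 1 library left out. Leaving out 1 library gave 4 to 6 higher and 13 to 15 lower genes, and 12 to 23 higher and 23 to 37 lower genes of the further lists, with 23 lower without control library 2. Those lists gave 11 higher on log2(FPKM + 1), 9 on unfiltered FPKM, 3 higher and 13 lower with the Ttr covariate, and 5 higher and 18 lower without control libraries 2 and 3. The median fold change over the listed genes fitted was -0.13 on log2(FPKM + 1) and -0.37 when scaled by library size, each over 35 genes. Settings that fit more of them gave -0.49 with DESeq2, -0.51 with no filter and -0.11 on unfiltered FPKM (39 genes each), -0.39 with a filter of 10 counts in 4 libraries (36 genes), and -0.55 to -0.22 with 1 library left out (35 to 37 genes). Over the same 35 genes these were -0.28 with DESeq2, -0.31 with no filter, -0.13 on unfiltered FPKM and -0.29 with the 10-count filter. The 16 genes not past the threshold passed it, in the same direction, in 7 of 320 values. These were Pcna with relative log expression scaling, with DESeq2 and without bigenic library 2, and Mcm5 without bigenic library 2. The rest were Ccnd3 scaled by library size and on filtered log2(FPKM + 1) and log2(FPKM + 0.1). Among the same genes, Mcm2 turned to 0.28 with the Ttr covariate and to 0.062 without control libraries 2 and 3 (-0.14 to 0.037 with 1 library left out). Rrm2 turned to -0.00038 on log2(FPKM + 1), filtered or not, and to -0.0033 on log2(FPKM + 0.1) (-0.038 to 0.16 with 1 library left out), and Aurka lay between -0.22 and 0.056 with 1 library left out. Higher genes were 35.7% of all calls when scaled by library size, 39.1% by upper quartile and 48.2% by TMM. The replicate block gave 4 higher and 15 lower genes and 7443 calls over all genes, but the labels do not say that the numbers pair the mice. Correlations between same-numbered libraries were 0.34, 0.03, 0.17 and 0.07. Bigenic libraries 1, 3 and 4 correlated best with the control of the same number, and bigenic library 2 with control library 1. Whether the mice were paired is therefore not known. Where a call was lost, the cause was not tested, and genes under about 1 CPM rest on few reads.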

Other observations

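Bub1b and Nusap1, both higher in bigenic cerebellum, lie near each other on chromosome 2, which was noticed after their values were seen. Of 34 fitted genes annotated within 1000000 bases of Bub1b, the 39 listed genes left out, 10 rose and 2 fell, with a median of 0.22, beside 21.4% higher and 22.9% lower over all genes. Among them, A430105I19Rik rose by 0.96 ± 0.15 (adjusted p = 0.00053) and 5430417L22Rik by 0.87 ± 0.17 (adjusted p = 0.0018). Dll4, a Notch ligand, rose by 0.82 ± 0.17 (adjusted p = 0.0027), and Casc5, the kinetochore gene also called Knl1, by 0.77 ± 0.24 (adjusted p = 0.022). Within the same distance of Nusap1, 11 of 46 rose and 7 fell, and the sets share genes. Pla2g4e, near Nusap1, rose by 2.18 ± 0.12 (adjusted p = 1.8e-06). Around Ccna2 on chromosome 3, 2 of 16 rose and 5 fell, with a median of -0.13. No test of these neighbourhoods was run.

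Among the 8 libraries, bigenic library 3 held the highest level of 3 of the 4 genes that rose. Of the 15 genes that fell, control library 4 held the highest level of 7, control library 3 of 6 and control library 2 of 2, while bigenic library 1 held the lowest level of 7.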
